A study of Chlamydomonas reinhardtii with 12 samples.

Results

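The comparison described here asks where the response of the green alga Chlamydomonas reinhardtii to nutritional stress depended on the vip1-1 mutation. It is the interaction of genotype and condition, the vip1-1 response (stress minus control) minus the wild-type response, and it used all 12 libraries of the series. The 4 groups were vip1-1 stress, vip1-1 control, wild-type stress and wild-type control, with 3 biological replicates each. Stress cultures had grown for 14 days and control cultures for 24 h, all in liquid TAP medium (Tris-acetate-phosphate) at 25 °C under 50 µmol photons per square metre and second, so culture age and nutrient state changed together. CC-1690 is the strain given for every sample of both genotypes. The series text describes vip1-1 as deficient in inositol pyrophosphates. The labels do not give the kind of lesion or how many independent lines were used, so the difference between genotypes is that between these strains. Polyadenylated RNA was sequenced from whole cultures, in which a change in the share of cells in a given state and a change in RNA per cell cannot be told apart.

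Inositol pyrophosphates are inositol phosphates that carry a high-energy diphosphate group. Kinases of the VIP1 family make one class of them, and in yeast, plants and algae they are known as signals of nutrient state, above all of phosphate. In Chlamydomonas, VIP1 has been linked to the TOR kinase, which sets growth by nutrient supply, and to the storage of carbon as neutral lipid and starch. A culture left for days in one batch of medium uses up its nutrients, stops dividing and remodels its metabolism.

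The count table listed 17741 gene IDs, of which 15286 had enough counts to be tested. The files pair no ID with a gene name, and RefSeq genes of Chlamydomonas_reinhardtii_v5.5 matched 17738 IDs by locus tag but named 0 of them. Genes are therefore given by ID with no role, the 26 function lists prepared for the report matched 0 genes, and the gene disrupted in vip1-1 could not be checked. Total counts ran from 9749837 to 28833327 per library. A set of 6 co-varying abundant features held 1.23% to 46.9% of the counts in vip1-1 stress, 0.561% to 4.85% in vip1-1 control, 26.0% to 66.5% in wild-type stress and 9.32% to 71.0% in wild-type control. The counts left for other genes were lowest in wild-type control replicate 1, at 2829344. Libraries of a group resembled each other least in wild-type control, with Spearman's rho across genes of 0.833 to 0.898, against 0.894 to 0.99 in the other groups. Wild-type control replicate 2 stood closer to vip1-1 control replicates 1 and 2 (0.935 each) than to its own group (0.898 and 0.891). Wild-type control replicate 3 likewise stood closer to vip1-1 control replicate 3 (0.950) than to its own group. Numbers of calls, signs of the named interactions and shares of weaker responses were also computed without replicate 3 of wild-type control. Whether a gene differed more between genotypes under stress or in control was not computed without it.

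With all libraries in edgeR, most called genes fell under stress in wild-type, and less or not detectably in vip1-1. This form was seen in 5 of the 6 genes that passed the test. These were 6 of 15286 genes (0.0393%), called at an edgeR adjusted p under 0.05 for the interaction, 5 positive (0.0327%) and 1 negative (0.00654%). Other methods on all libraries were closer to even, with 118 positive and 94 negative calls by DESeq2 and 256 and 243 by limma voom. At an unadjusted p under 0.05 (edgeR), 557 genes were positive and 666 negative. In edgeR the balance of calls turned round after removing wild-type control replicate 3, with 92 positive and 401 negative. It was 93 and 387 when both genotypes lost control replicate 3. A response is called weaker in vip1-1 where both genotypes' fitted responses have the same sign and that of vip1-1 is smaller, stronger where it is larger, and opposite where the signs differ. By that rule 4 of the 6 called genes were weaker in vip1-1, 0 were stronger and 2 were opposite. All 6 differed between genotypes under stress (edgeR adjusted p of 0.0055 or less) and in control 0 passed, with 2 of the 6 at an unadjusted p under 0.05 (edgeR), as were 6.50% of all genes. Over all genes, 1.56% (239 genes) differed between genotypes under stress and 0.255% (39 genes) in control, where the replicate block left 12 calls. This order also turned round after removing wild-type control replicate 3, with 373 genes under stress and 849 in control. Both of those comparisons share libraries with the interaction. At an unadjusted p under 0.05 there were 1223 genes (8.0%), 429 weaker (35.1%), 283 stronger (23.1%) and 511 opposite (41.8%). Over all genes tested, 44.4% were weaker, 33.5% stronger and 22.1% opposite. Choosing genes by a large difference of the responses favours opposite signs, so the shares over all genes are no fair background. The 1223 genes are described below as a group, and apart from the 6 its members did not pass the adjustment.

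**Figure D1:**
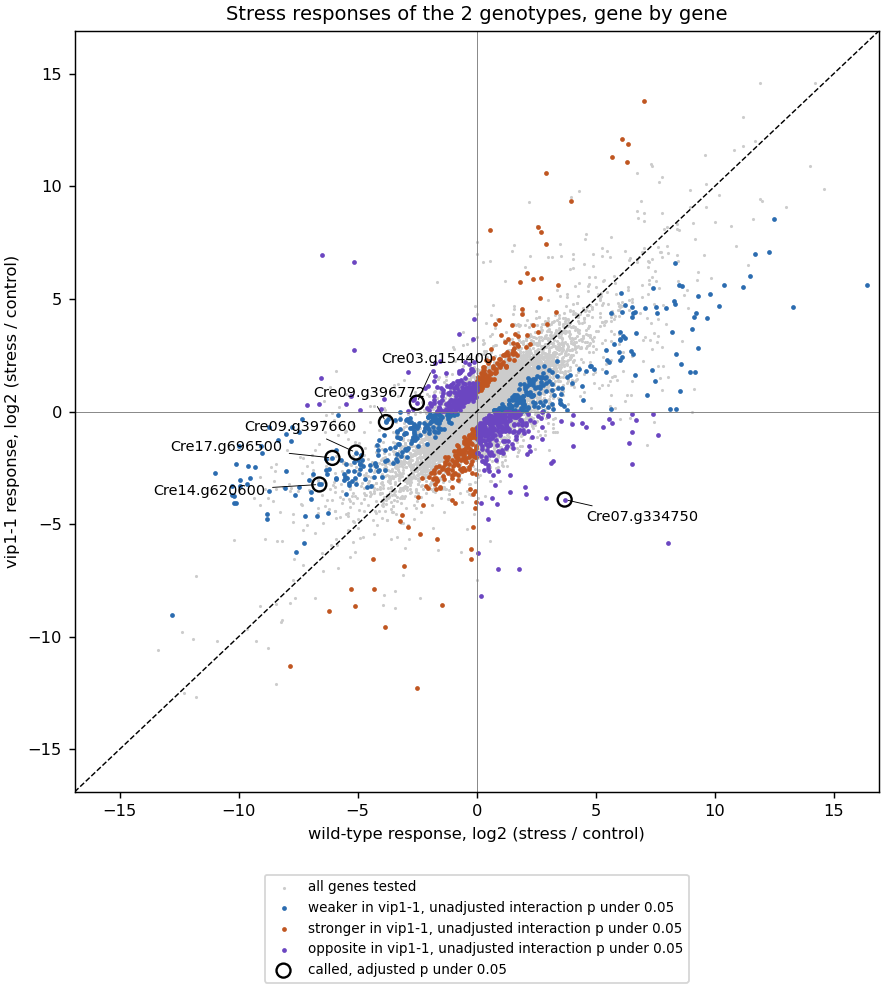
Stress response of each gene in vip1-1 (vertical axis) against that in wild-type (horizontal axis), both as log2 of stress over control, for the 15286 genes tested. Grey points are all genes, coloured points the 1223 genes with an unadjusted interaction p under 0.05 by class, circles the 6 called genes, and the dashed line marks equal responses. Of the 6 called genes, 5 lie above the line with a wild-type fall, and Cre07.g334750 lies below it.

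Among the called genes, the common form was a deep fall in wild-type that vip1-1 showed only in part. Expression is given as CPM, counts scaled to a common TMM-adjusted library size. Cre17.g696500 had 22.3, 21.4 and 22.8 CPM in vip1-1 stress and 89.5, 81.4 and 107 CPM in vip1-1 control. In wild-type it had 2.45, 1.23 and 2.35 CPM under stress and 106, 132 and 172 CPM in control. The control libraries overlapped at 106 to 107 CPM, whereas every vip1-1 stress library was above every wild-type stress library. Under stress the level in vip1-1 was 10.8-fold that in wild-type (log2 3.43, SE 0.30, edgeR adjusted p 0.00076), and in control 0.677-fold (edgeR adjusted p 0.77). The interaction was 3.99 on the log2 scale (SE 0.39, edgeR adjusted p 0.0061).

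Cre09.g396772 had 41.9, 51.4 and 44.0 CPM in vip1-1 stress, all below the 65.3, 61.5 and 63.3 CPM of vip1-1 control. Its vip1-1 response was -0.47 on the log2 scale (SE 0.24) and did not pass the test (edgeR adjusted p 0.19). In wild-type the same gene fell to 5.31, 5.42 and 4.50 CPM under stress, against 48.5, 67.9 and 97.1 CPM in control, a 14.0-fold fall (log2 -3.81, SE 0.28, edgeR adjusted p 1.1e-05). The stress libraries of the genotypes did not overlap, while their control libraries did. The interaction was 3.34 (SE 0.36, edgeR adjusted p 0.0077).

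Cre09.g397660 fell in both genotypes, less in vip1-1. Its levels were 23.4, 32.7 and 39.2 CPM in vip1-1 stress and 106, 90.4 and 141 CPM in vip1-1 control. Wild-type had 5.84, 4.93 and 7.41 CPM under stress and 175, 225 and 212 CPM in control. The fall was 3.54-fold in vip1-1 and 33.6-fold in wild-type, with an interaction of 3.25 (SE 0.38, edgeR adjusted p 0.012). Here the vip1-1 controls were also below all wild-type controls, a difference of -0.86 that did not pass the test over all genes (edgeR adjusted p 0.36). The partial fall in vip1-1 thus started from a lower control level and ended at a higher stress level than in wild-type.

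Cre14.g620600 fell 9.42-fold in vip1-1 and 97.9-fold in wild-type. Its libraries held 87.8, 177 and 89.0 CPM in vip1-1 stress and 993, 941 and 1400 CPM in vip1-1 control. In wild-type they held 22, 23.3 and 17.6 CPM under stress and 2680, 1850 and 1640 CPM in control. The genotypes did not overlap in either condition, with vip1-1 above wild-type under stress and below it in control. In control it was the most abundant of the called genes per transcript length. In the deposited FPKM table, which is not corrected for the abundant features, it averaged 617 ± 140 FPKM in vip1-1 control and 663 ± 249 FPKM in wild-type control (SD, n = 3 each). The other 5 called genes averaged 0.515 to 66.9 FPKM in vip1-1 control and 0.870 to 81.1 FPKM in wild-type control.

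In the remaining called genes the fitted responses had opposite signs. Cre03.g154400 had 35.9, 21.7 and 25.5 CPM in vip1-1 stress and 20.9, 21.4 and 20.8 CPM in vip1-1 control, a response of 0.39 (SE 0.26) that did not pass the test (edgeR adjusted p 0.32). In wild-type it fell to 2.80, 4.56 and 2.63 CPM under stress, against 21.1, 18.6 and 16.9 CPM in control, a 5.69-fold fall (edgeR adjusted p 0.00015). The control libraries of the genotypes overlapped, and the interaction was 2.90 (SE 0.39, edgeR adjusted p 0.036). Cre07.g334750 ran the other way. It had 0, 8 and 0 counts in vip1-1 stress, 30, 39 and 121 counts in vip1-1 control, 958, 363 and 927 counts in wild-type stress and 12, 73 and 142 counts in wild-type control. It fell in vip1-1 (edgeR adjusted p 0.0068) and rose 13.0-fold in wild-type (edgeR adjusted p 0.0026), with an interaction of -7.61 (SE 1.08, edgeR adjusted p 0.045). The size of the vip1-1 fall rests on 8 counts in 1 library, vip1-1 stress replicate 2, and without it the fitted interaction was -11.92.

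**Figure D2:**
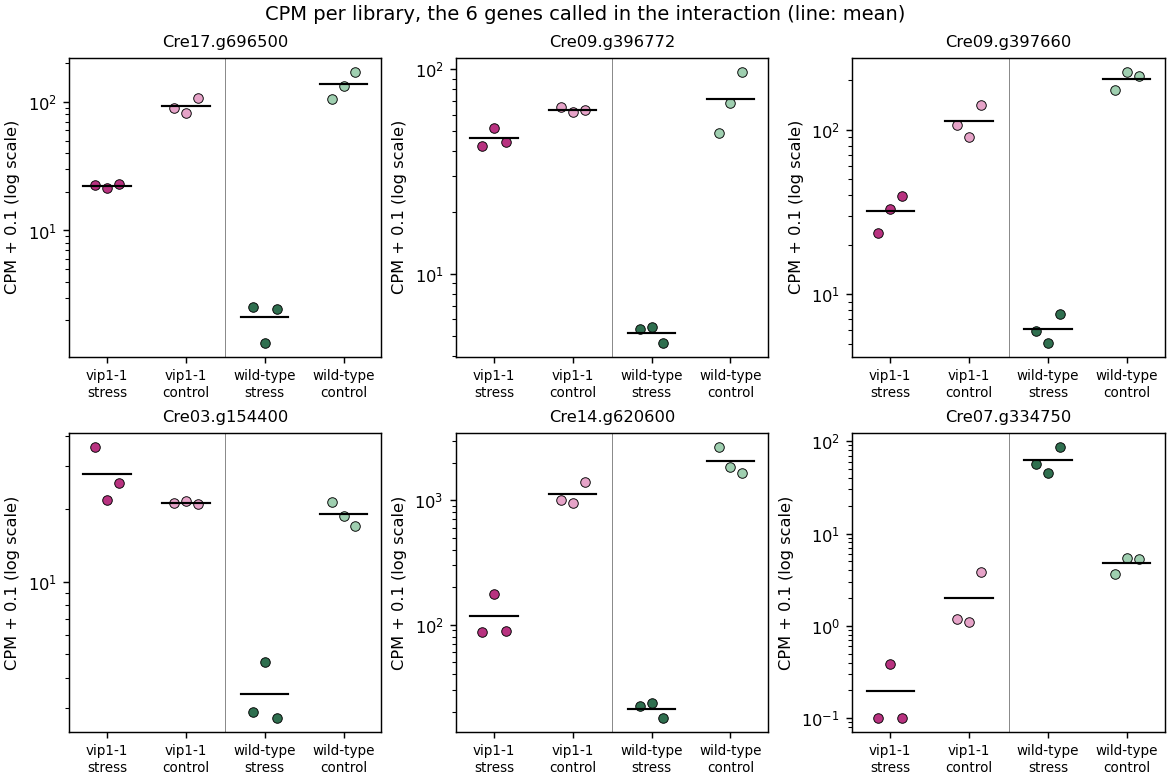
CPM in each library (points, CPM + 0.1 on a log axis) and the group mean (lines) for the 6 genes called in the interaction, with the vip1-1 groups left of the wild-type groups and stress left of control. In 5 panels the wild-type stress libraries are the lowest group, below all vip1-1 stress libraries, and in the panel of Cre07.g334750 they are the highest.

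Single libraries decided several of the calls. All 6 genes kept the sign of their interaction in every alternative in which they were fitted. Cre17.g696500 lost its call with library totals alone and after removing vip1-1 control replicate 1 or 2. After removing vip1-1 stress replicate 3 its call was just kept, at the threshold (edgeR adjusted p 0.05). The calls of Cre09.g396772 and Cre09.g397660 were lost in 7 of 22 alternatives each. Cre14.g620600 lost its call in 10 of 22, Cre03.g154400 in 12 of 22 and Cre07.g334750 in 13 of 21. Leaving out vip1-1 control replicate 1 and replicate 2 each took the number of genes called to 0 (1029 and 972 genes at an unadjusted p under 0.05, edgeR). It was 1 after removing vip1-1 stress replicate 3, wild-type stress replicate 1 or 2, or wild-type control replicate 2, and 3 after removing wild-type control replicate 1. It was 17 after removing wild-type stress replicate 3, 493 after removing wild-type control replicate 3, and 480 when both genotypes lost control replicate 3. The sets of 493 and 480 held all 6 genes. With all libraries, DESeq2 called 212 genes and limma voom with sample weights 499, again with all 6 among them.

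The larger set called without wild-type control replicate 3 consisted mainly of genes with few counts in the controls that remained, 69.8% against 12.4% of the 15356 genes tested there. Of these 493 genes, 355 were weaker in vip1-1, 19 stronger and 119 opposite. Genes that rose under stress in wild-type made up 319 of the 355. In 344 of the 493 genes, wild-type control replicates 1 and 2 both had 3 counts or fewer, and in 343 of those 344 replicate 3 had more than 3, with a median of 76 counts. The same share was not computed over all 1901 tested genes with that few counts in both. Outside the abundant features, wild-type control replicate 3 held 19804883 counts, against 2829344 in replicate 1 and 11769449 in replicate 2. Of the 493 genes, 161 had an unadjusted p under 0.05 in the fit to all libraries and 481 had the same sign there. Wild-type control replicates thus differed in whether these genes had counts, and the part of this in the calls was not tested.

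The 24 genes named here, which include the 6 called ones, are the 8 with the smallest interaction p in each class. They were taken from 539 genes with an unadjusted p under 0.05, a mean of at least 10 CPM in a group, and 9 possible vip1-1 responses (each stress library minus each control library) that did not overlap the 9 of wild-type. Over all genes tested, 5.67% had responses that did not overlap, and 4.13% also had an unadjusted p under 0.05. The 539 genes held 209 weaker, 127 stronger and 203 opposite responses. Over all genes tested, 44.4% were weaker, 33.5% stronger and 22.1% opposite.

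Of the 8 weaker genes, 7 fell under stress in wild-type and 1 rose, and all 8 differed more between genotypes under stress than in control. Of the 429 weaker genes with an unadjusted interaction p under 0.05 (edgeR), 215 fell and 214 rose, and 290 differed more under stress. Of all 6787 weaker genes, 2736 fell and 4051 rose, and 3185 differed more under stress. The 7 falls thus do not describe the class. All 8 named weaker genes passed the test of the wild-type response, as did 428 of the 429. The class and the ranking by interaction p favour a large wild-type response, so the 26.0% of all genes that passed is no fair background. Each also differed between genotypes under stress, a comparison that shares libraries with the interaction. Besides the 4 called genes, Cre11.g481600 fell 8.12-fold in vip1-1 and 131-fold in wild-type. It had 23.5, 60.8 and 56.3 CPM in vip1-1 stress and 355, 317 and 471 CPM in vip1-1 control, against 2.69, 3.45 and 1.6 CPM in wild-type stress and 272, 239 and 495 CPM in wild-type control. Its controls overlapped between genotypes, and its interaction of 4.01 (SE 0.60) just missed the threshold (edgeR adjusted p 0.058). Cre17.g705300 fell 9.41-fold in vip1-1 and 92.0-fold in wild-type, and Cre16.g676700 fell 1.85-fold in vip1-1 and 6.13-fold in wild-type, each with an interaction at an edgeR adjusted p of 0.061.

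The 1 weaker gene that rose was Cre10.g426800. It had 51.1, 36.5 and 36.0 CPM in vip1-1 stress and 15.6, 14.6 and 20.8 CPM in vip1-1 control. In wild-type it had 165, 177 and 310 CPM under stress and 17.8, 11.1 and 11.8 CPM in control. The rise was 2.43-fold in vip1-1 and 16.2-fold in wild-type, from control levels that overlapped (interaction -2.74, SE 0.43, edgeR adjusted p 0.061).

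**Figure D3:**
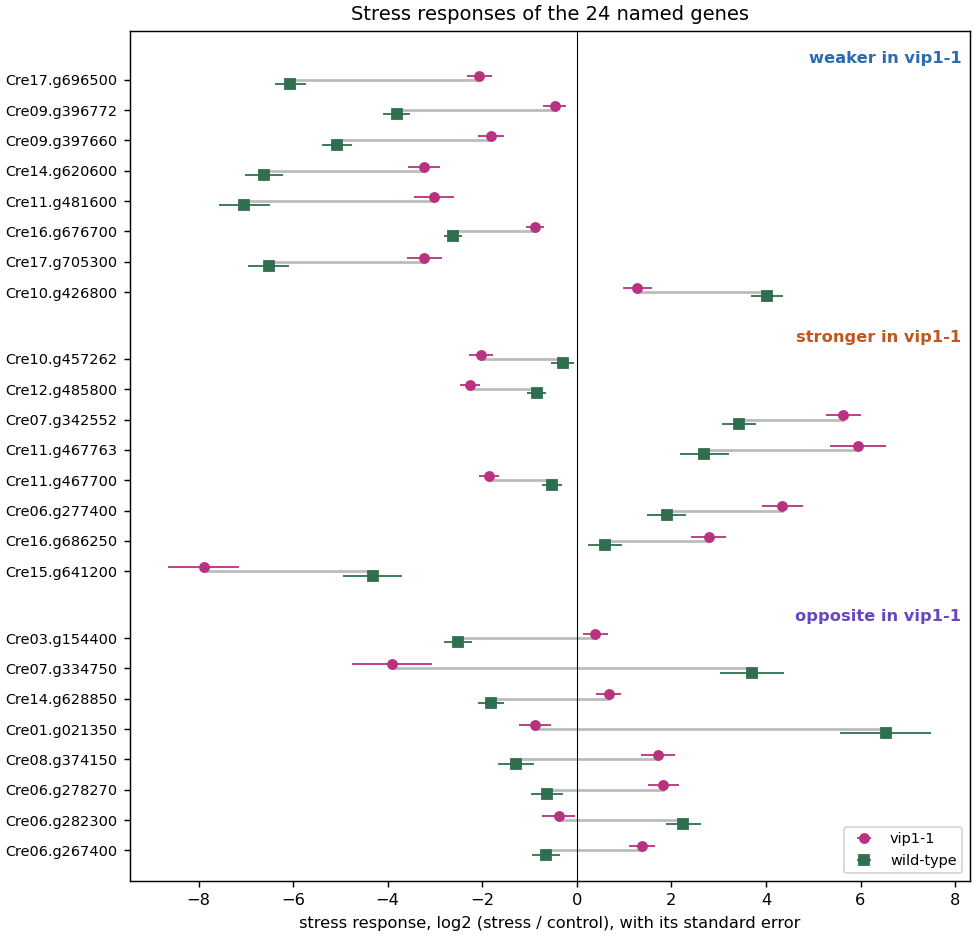
Stress responses (log2 of stress over control, with standard errors) of the 24 named genes, circles for vip1-1 and squares for wild-type, grouped by class and ordered by interaction p within a class. In the weaker class 7 of 8 genes lie on the left, with the vip1-1 response closer to 0, and in the opposite class the symbols of each gene lie on different sides of 0.

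The 8 stronger responses in vip1-1 had unadjusted interaction p-values of 0.00038 to 0.0014 (edgeR), and none passed the adjustment (edgeR adjusted p of 0.16 to 0.25). Of these 8 genes, 4 rose and 4 fell under stress. All 8 passed the test of the vip1-1 response, as did 281 of 283 stronger genes with an unadjusted interaction p under 0.05 (edgeR). This class is defined by the larger vip1-1 response, so the 23.2% of all genes that passed is no fair background. Cre07.g342552 had 176, 125 and 132 CPM in vip1-1 stress and 2.26, 2.15 and 4.29 CPM in vip1-1 control, a 49.6-fold rise. In wild-type it had 17.5, 21.1 and 30.7 CPM under stress and 2.38, 2.34 and 1.87 CPM in control, a 10.7-fold rise. The control libraries overlapped, with vip1-1 control replicate 3 above the others, and the stress level was 6.25-fold higher in vip1-1 than in wild-type (edgeR adjusted p 0.0029), with an interaction of 2.22 (SE 0.46, edgeR adjusted p 0.17).

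Cre11.g467763 reached the larger rise from the other end. It had 34.8, 31.2 and 33.3 CPM in vip1-1 stress, within the 22.1, 19.4 and 63.2 CPM of wild-type stress. Its controls were at 0.825, 0.256 and 0.548 CPM in vip1-1, below the 6.54, 6.14 and 3.78 CPM of wild-type (log2 -3.32, SE 0.55, edgeR adjusted p 0.032). The genotypes thus differed in control and overlapped under stress. Its rise was 61.3-fold in vip1-1 and 6.48-fold in wild-type (interaction 3.24, SE 0.71, edgeR adjusted p 0.19).

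Falls that were deeper in vip1-1 included Cre10.g457262. It fell to 4.27, 3.26 and 3.34 CPM in vip1-1 stress, against 15.8, 14.1 and 14.4 CPM in vip1-1 control. Wild-type had 17.3, 14.4 and 16.4 CPM under stress and 14.3, 20.7 and 23.9 CPM in control, a response of -0.30 (SE 0.24) that did not pass the test (edgeR adjusted p 0.39). Cre11.g467700 fell 3.61-fold in vip1-1, and its wild-type response of -0.53 (SE 0.21) did not pass (edgeR adjusted p 0.084). Cre12.g485800 fell 4.79-fold in vip1-1 and 1.80-fold in wild-type. Cre15.g641200 had 0, 19 and 8 counts in vip1-1 stress and 2648, 3864 and 3597 counts in vip1-1 control. In wild-type it had 42, 26 and 73 counts under stress and 212, 1012 and 3020 counts in control. It was nearly lost from vip1-1 stress libraries and detected in all wild-type stress libraries. The other stronger genes were Cre06.g277400 and Cre16.g686250, which rose 20.4-fold and 6.90-fold in vip1-1.

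Among the 8 opposite responses, Cre08.g374150 was the one gene besides Cre07.g334750 whose response passed the test in both genotypes. It had 49.6, 41.6 and 34.9 CPM in vip1-1 stress and 12.4, 15 and 11.1 CPM in vip1-1 control. Wild-type had 4.73, 3.45 and 1.97 CPM under stress and 10.4, 10.2 and 4.66 CPM in control. It rose 3.27-fold in vip1-1 (edgeR adjusted p 0.0061) and fell 2.42-fold in wild-type (edgeR adjusted p 0.030), while its interaction of 2.99 (SE 0.53) missed the threshold (edgeR adjusted p 0.098).

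Cre06.g278270 and Cre06.g267400 had the same shape without a passing fall in wild-type. Cre06.g278270 rose 3.55-fold in vip1-1, with 252, 248 and 195 CPM under stress and 71.7, 80.5 and 43.6 CPM in control. Its wild-type libraries held 47.2, 36.2 and 35.0 CPM under stress and 64.5, 83.9 and 35.0 CPM in control, and these overlapped. Cre06.g267400 rose 2.60-fold in vip1-1, and its wild-type response was -0.65 (SE 0.29, edgeR adjusted p 0.12). Under stress the vip1-1 level was 5.86-fold that of wild-type for Cre06.g278270 and 9.22-fold for Cre06.g267400 (edgeR adjusted p 0.0055 and 0.00082). Cre14.g628850 had a vip1-1 response of 0.67 (SE 0.26, edgeR adjusted p 0.081) and fell 3.51-fold in wild-type.

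In another 2 opposite genes the difference was larger in control. Cre06.g282300 had 23.4, 55.8 and 42.1 CPM in vip1-1 stress and 46.7, 50.7 and 60.9 CPM in vip1-1 control, which overlapped. It rose 4.76-fold in wild-type, with 58.7, 55.9 and 109 CPM under stress and 16.4, 12.1 and 18.6 CPM in control. Its genotype difference in control, 1.75 (SE 0.36), did not pass (edgeR adjusted p 0.090). Cre01.g021350 had 219, 406 and 296 counts in vip1-1 stress and 813, 979 and 1019 counts in vip1-1 control. It had 15, 2 and 5 counts in wild-type stress and 0 counts in each wild-type control. Its wild-type rise is at least 1.3-fold against a floor of 3 counts per library, so the fitted interaction of -7.41 depends on the prior count and gives no size. The vip1-1 response was -0.89 (SE 0.34, edgeR adjusted p 0.091), and the genotypes differed in control (edgeR adjusted p 0.00047).

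**Figure D4:**
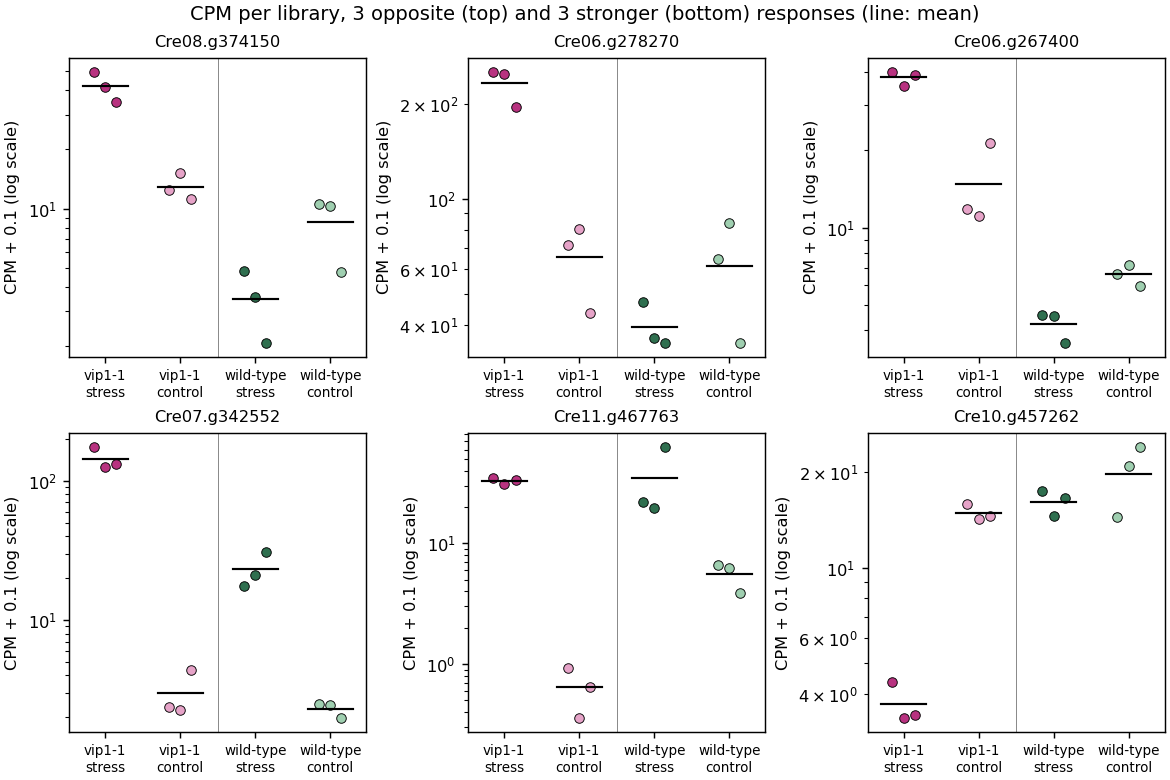
CPM in each library (points, CPM + 0.1 on a log axis) and the group mean (lines) for 3 genes with opposite responses (top) and 3 with stronger responses in vip1-1 (bottom), chosen after their values were seen. In the top panels the vip1-1 stress libraries are the highest group and wild-type stress has the lowest mean. Cre11.g467763 is the panel where the genotypes differ in control and overlap under stress.

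Over the 1223 genes with an unadjusted p under 0.05, the genotypes differed more under stress than in control in 919 (75.1%), against 56.1% of all genes tested. The share depended on the form of the response. Of the 215 weaker genes that fell in wild-type, 184 differed more under stress and 31 more in control. The 214 weaker genes that rose in wild-type were split about evenly, 106 under stress and 108 in control. Median responses in the first group were -1.27 in vip1-1 and -3.34 in wild-type, and in the second 0.93 in vip1-1 and 2.68 in wild-type, on the log2 scale. Of the 160 stronger genes with a fall, 147 differed more under stress, with medians of -2.25 in vip1-1 and -0.75 in wild-type. The 1223 genes were chosen by the interaction, so these values describe the group and test nothing. These values were not computed without wild-type control replicate 3. The order of these forms was the same among genes called in the response averaged over the genotypes, described below. There 994 of 1536 weaker genes with a wild-type fall differed more under stress. So did 719 of 1892 weaker genes with a wild-type rise and 915 of 1268 stronger genes with a fall. In 100 of the 1223 genes (8.18%), every library of at least 1 group had 3 counts or fewer, against 3.3% of all genes. That group was wild-type control in 42 of the 100 and wild-type stress in 40. Over all genes tested, 504 were such genes, with wild-type control in 225 and wild-type stress in 271, so the wild-type groups prevailed there too.

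Whether responses were weaker in vip1-1 as a whole was read from the response averaged over the genotypes, which chooses genes without using their difference. It called 6065 genes (39.7%), of which 3240 rose (21.2%) and 2825 fell (18.5%). Of the 6065, 3428 (56.5%) had the smaller response in vip1-1, 2594 the larger, and 43 (0.709%) opposite signs, against 22.1% opposite over all genes. A large averaged response nearly excludes opposite signs, so the 43 do not tell how frequent opposite responses were. Among genes with the same sign in both genotypes, 56.9% of the 6022 responding ones were weaker in vip1-1, against 57% of 11903 over all genes tested, so the share was near that of all genes. Among genes that rose, the median log2 response was 1.41 in vip1-1 and 1.58 in wild-type, and the median ratio of the vip1-1 to the wild-type response was 0.898 (quartiles 0.652 and 1.25). Among genes that fell, the medians were -1.28 in vip1-1 and -1.33 in wild-type, with a median ratio of 0.916 (quartiles 0.623 and 1.34). In 525 of the 6065 (8.66%) the responses of the genotypes did not overlap, against 5.67% of all genes.

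This majority depended on the genes and libraries included. Where each library had to hold 10 counts or more, 49.9% of 4704 responding genes were weaker in vip1-1. After removing wild-type control replicate 3 the share was 64.9% of 7016. Among genes that fell, removing vip1-1 stress replicate 2 gave 48.7%, and removing wild-type stress replicate 3 gave 50%. With all libraries the share was 58.4% of genes that rose and 54.4% of genes that fell. With each genotype's responses centred on their median over all genes, an alternative chosen after seeing the data, these shares were 51.6% and 60.6%. The spread between wild-type control libraries was larger than in the other groups, as the rank correlations show, and its part in the share was not tested.

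**Figure D5:**
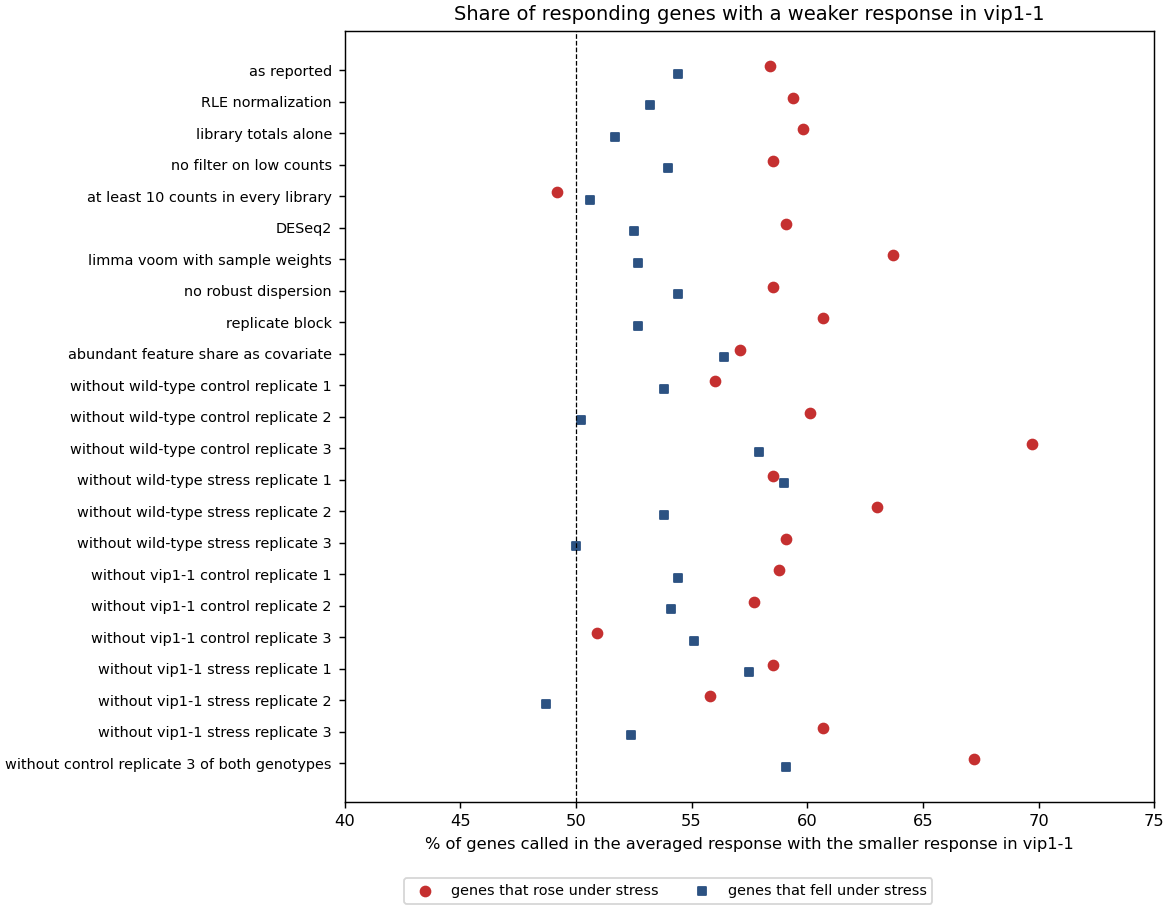
Percent of the genes called in the averaged response that had the smaller response in vip1-1, for genes that rose (circles) and genes that fell (squares) under stress, as reported and in each alternative that refits the data. The dashed line marks 50%. Points at or below 50% are the circle for 10 counts in every library (49.2%), the square at 48.7% where vip1-1 stress replicate 2 was removed, and the square at 50% where wild-type stress replicate 3 was removed.

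The expression profiles most like those of the 3 genes with the smallest interaction p were sought by Pearson's r of log2 CPM over the 12 libraries. The r values describe profiles that share all libraries. Cre17.g696500 and Cre09.g397660 were alike at 0.987, and both fell deeper in wild-type. The next most like Cre17.g696500 were Cre12.g491050 (0.982) and Cre02.g106250 (0.978), and those most like Cre09.g397660 included Cre08.g370900 (0.988) and Cre02.g094450 (0.985). For Cre09.g396772 they were Cre11.g467600 (0.968), Cre10.g449300 (0.958) and Cre14.g609850 (0.957). The 7 genes besides the called ones had interactions of 1.92 to 3.06 with a deeper wild-type fall in each, and edgeR adjusted p-values of 0.098 to 0.49. Genes chosen for a profile like that of a called gene tend to share its interaction, so this direction follows from the choice.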

How the data were processed

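The authors deposited unnormalised counts for each gene, and FPKM values (scaled to transcript length and library size) for the same genes. HISAT2 and StringTie are named in the submitters' processing notes, with no role or version. Per the labels' protocols, libraries were made with a stranded mRNA kit. The genome build, annotation and strand setting of the counting are not given in the sources used here, so reads of antisense and overlapping genes cannot be told apart. The labels call the replicates biological without saying how the cultures were separated, so p-values measure the spread between these libraries.

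Tests on the counts used edgeR 4.0.16 (R 4.3.3), with filterByExpr by group, TMM scaling, a group-means model over all 12 libraries, a robust quasi-likelihood fit and Benjamini-Hochberg adjustment over 15286 genes. A standard error is the size of the log2 change over the root of its F statistic. FPKM values gave levels per length and were not tested. Same-numbered control libraries of the genotypes deviated together (r of 0.157, 0.185 and 0.403, all over 0.1), so the replicate block is given beside the genotype difference in control. The procedure was tested on simulated data with changes planted in vip1-1 stress and otherwise the same means in all groups. That setting had no spread particular to a group, so it does not speak to the shifts between the alternatives. Genes were named by the rule in the report, with up to 8 per class. Genes, lists and tests were chosen with earlier results of these data known. The alternatives were RLE or no scaling, a filter on low counts left out or set at 10 counts in every library, DESeq2 1.42.0, limma 3.58.1 voom with sample weights, no robust fit, a replicate block, the abundant-feature share as a covariate, each library left out, and control replicate 3 of both genotypes left out. The 95% Wilson intervals of the abundant-feature shares were at most 0.057 percentage points wide, and these intervals and the floor of 3 counts cover counting error only.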

Additional observations from a re-analysis of the deposited data

Results flagged for a closer look

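In 6 genes the stress responses of vip1-1 and wild-type differed by the test of the difference itself (edgeR, adjusted over all genes). The interaction, vip1-1 response minus wild-type response on the log2 scale, was 3.99 for Cre17.g696500, 3.34 for Cre09.g396772, 3.25 for Cre09.g397660, 3.38 for Cre14.g620600, 2.90 for Cre03.g154400 and -7.61 for Cre07.g334750. The last value gives no firm size, since vip1-1 stress had 0, 8 and 0 counts, and it was -11.92 without vip1-1 stress replicate 2.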

How the results depend on the processing

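The 24 named genes kept the sign of their interaction in each alternative in which they were fitted. The number of interaction calls, 6 as reported, was 0 with library totals alone (351 genes at an unadjusted p under 0.05, edgeR), 13 with 10 counts required in every library, 212 with DESeq2, 499 with voom, 3 with the replicate block, 3 with the abundant-feature share as covariate and 480 without control replicate 3 of both genotypes. It ranged from 0 to 493 when single libraries were left out. Replicate numbers were not taken as pairs for the interaction: same-numbered libraries deviated together (every r over 0.1) in 1 of 6 pairs of groups, the controls, with r of -0.186 to 0.403 overall. With the replicate block Cre14.g620600, Cre03.g154400 and Cre07.g334750 were no longer called (edgeR adjusted p 0.069 each), 12 genes differed between genotypes in control, 0 opposite responses were called, and 66 averaged-response genes were opposite. Called weaker, stronger and opposite responses numbered 0, 0 and 0 with library totals, 96, 47 and 69 with DESeq2, 235, 90 and 174 with voom, and 357, 22 and 101 without control replicate 3 of both genotypes. Weaker calls were 10 with the 10-count filter, and opposite calls were 1 with RLE and 0 with the covariate. Leaving out single libraries gave 0 to 355 weaker, 0 to 19 stronger and 0 to 119 opposite calls. At an unadjusted p under 0.05, weaker, stronger and opposite genes numbered 144, 61 and 146 with library totals and 1360, 669 and 932 with voom. Weaker genes were 278 with the 10-count filter, and 1453 were weaker and 964 opposite without control replicate 3 of both genotypes. Without single libraries the ranges were 302 to 1550, 183 to 353 and 338 to 1357. Calls with library totals alone were 904 for the vip1-1 response, 1035 for the wild-type response, 2790 for the averaged response, 68 for the genotypes under stress and 25 in control. With voom they were 10225, 6173, 9671, 4023 and 353 in the same order. The genotypes differed at 1075 genes under stress and 282 in control with DESeq2, at 56 and 6 with the covariate, at 592 and 697 without control replicate 3 of both genotypes, and at 23 in control with the 10-count filter. Without single libraries, ranges were 2168 to 4261 for the vip1-1 response, 2740 to 5263 for wild-type, 4996 to 7016 for the average, 53 to 373 under stress and 9 to 849 in control. Averaged-response genes were weaker in 1555, stronger in 1233 and opposite in 2 with library totals, and 5706 were weaker and 211 opposite with voom. Opposite ones were 77 with DESeq2, 12 with the covariate and 151 without control replicate 3 of both genotypes. Without single libraries 2778 to 4550 were weaker, 2131 to 2848 stronger and 17 to 205 opposite. The cause of these shifts was not tested. Depth limits low genes most in wild-type control replicate 1, where 3 counts are 0.892 CPM.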

Other observations

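In the gene order of the assembly Chlamydomonas_reinhardtii_v5.5, the 557 genes with a positive interaction at an unadjusted p under 0.05 lay as 506 single genes, 24 adjacent pairs and 1 run of 3. The 666 with a negative interaction lay as 593 single genes, 32 pairs and 3 runs of 3. The numbers that evenly scattered genes would give were not computed, so clustering cannot be read from these counts. In 1 of the runs of 3 all members had the same form of response. Cre17.g714100, Cre17.g714150 and Cre17.g714200, chosen after their values were seen, had weaker responses in vip1-1, and none passed the adjustment (edgeR adjusted p of 0.38 to 0.52). The interaction was -3.19 (SE 0.93) for Cre17.g714150 and -1.62 (SE 0.60) for Cre17.g714200. Cre17.g714100 had 0, 25 and 12 counts in vip1-1 stress, 9, 18 and 7 counts in vip1-1 control, 22, 19 and 261 counts in wild-type stress and 0, 0 and 3 counts in wild-type control, so its interaction has no firm size. Cre17.g714150 had 52.4, 49.5 and 47.4 CPM in vip1-1 stress and 13.1, 14.1 and 3.47 CPM in vip1-1 control, against 48.5, 67.7 and 266 CPM in wild-type stress and 3.57, 3.51 and 1.84 CPM in wild-type control. The stress levels of the genotypes overlapped in this gene, with wild-type stress replicate 3 far above the rest, and that library was also the highest for the other members, at 24.5 CPM for Cre17.g714100 and 759 CPM for Cre17.g714200.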
